A study of Homo sapiens with 12 samples.

Results

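The comparison is of SNU475 cells cultured with lactate and SNU475 cells left as controls. SNU475 is an established human hepatocellular carcinoma line. The libraries were taken by their labels, as the 4 of the series' 12 that carry this line's name. The 2 lactate libraries came from cells that were grown for 24 h in the presence of 20 mM lactate, added as lactic acid. The 2 control libraries came from cells labelled control, with no vehicle or culture time given in the labels. The other 8 libraries are of the carcinoma lines HLF and PLC/PRF/5, 4 each, under the same 2 conditions, and were used for the shared estimate of the spread and for the test of differences between lines. No allele or transgene is named for any group. Nothing in the labels tells if replicates are separate cultures. The p-values then only set a difference against a spread among these particular libraries, estimated over all 12 of them, and that spread may be technical. For the fit with the replicate number as a block, used below, it is only what is left once the difference between numbers is taken out.

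Lactate is the end product of glycolysis and is also taken up and oxidised. It crosses the plasma membrane together with a proton through monocarboxylate transporters, so lactic acid in the medium brings acid as well as carbon. Inside the cell lactate is turned into pyruvate by lactate dehydrogenase, and lactyl groups can be placed on lysines, including those of histones. Energy and acid state are read by several transcription systems, among them the glucose-sensing factors MondoA and ChREBP, whose best known target is TXNIP. Liver carcinoma cells differ widely in how epithelial or mesenchymal they are. TGF-beta and the YAP and TEAD factors drive the secreted matrix regulators CCN1 and CCN2 in many mesenchymal and tumour cells.

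The SNU475 libraries held 17199522 and 18585484 counts with lactate, against 18739823 and 20312109 in the controls. The labelled cell type was checked against marker genes by their summed TPM (levels scaled by gene length and depth). The hepatocyte markers ALB, APOA1, APOB, TTR, HNF4A and FGB summed to 2.51 and 3.88 TPM with lactate, against 1.93 and 1.90 TPM in controls, and APOA1, APOB and TTR were at 0 in all 4 libraries. The mesenchymal markers VIM, CDH2, FN1 and ZEB1 summed to 4310 to 5620 TPM. The epithelial markers summed to 3280 to 6980 TPM, nearly all of it from the keratins KRT8 and KRT18, with CDH1 at no more than 3.96 TPM. The defining hepatocyte transcripts were thus at or near 0. Of markers of other cell types, 3 endothelial genes summed to 0.12 to 0.38 TPM. The 4 macrophage and leukocyte markers summed to 160 and 61.2 TPM with lactate, against 112 and 40.4 TPM in controls, most of it from CD68, with CD14 at 4.44 to 29.5 TPM and the leukocyte gene PTPRC at most 0.55 TPM. The 4 stellate and smooth muscle markers summed to 885 and 476 TPM with lactate, against 820 and 491 TPM in controls, most of it from ACTA2. The 4 cholangiocyte markers summed to 156 and 68.5 TPM with lactate, against 124 and 48.7 TPM in controls, most of it from KRT19. In these last 3 sets both libraries numbered 2 lay below both numbered 1, and their part in the results was not tested.

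The libraries differed by number as well as by treatment, so this is given before the genes. In a principal component analysis of the 4 libraries the first component held 55.2% of the variance and placed lactate 2 at 90.1 and lactate 1 at -48.9, with control 2 at 14.6 and control 1 at -55.8. The second component, with 31% of the variance, placed both lactate libraries at -32.7 or below, and control 1 and control 2 at 0.209 and 71.7. The most alike libraries were lactate 1 and control 1 (r = 0.98 over genes), and the least alike were lactate 2 and control 1 (r = 0.944). No label says what a number stands for. The share of counts from mitochondrially encoded genes followed the number too, at 8.5% and 13.9% with lactate, against 8% and 15.1% in controls.

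With lactate, SNU475 cells held more transcript of the secreted regulators CCN1 and CCN2, of the integrin subunits ITGB3 and ITGA5, of the cytokine IL24 and of the metabolic gene TXNIP. They held less of the stress factor ATF5 and of the translation factor EIF5. A pair of fits was read side by side to test this, both with edgeR's quasi-likelihood test over 18355 genes and Benjamini-Hochberg adjustment. With groups alone, no gene passed an adjusted p of 0.05, the smallest being 0.23, while 2127 genes (11.6%) had an unadjusted p under 0.05. In the same design DESeq2 called 274 genes and limma-voom 0. The second fit has the replicate number as a block and compares lactate with control inside each number. Its p-values set a difference against how far the lactate effect disagrees between numbers, pooled over the lines (3 residual degrees of freedom). The difference between the libraries of a group that follows the number does not enter that spread. In this fit 46 genes (0.251%) passed. Of these, 33 (0.18%) were higher and 13 (0.0708%) were lower with lactate. The genes named above were not equally firm over 11 fits with the block. CCN1, CCN2 and ATF5 passed in each, ITGB3 in 10, IL24, ITGA5 and TXNIP in 8, and EIF5 in 7. Below, "rose" and "fell" mean that the gene passed in the blocked fit, and log2 fold changes with their standard errors (SE) are from that fit unless named otherwise. Each SE was worked back from the test, as the absolute log2 fold divided by the square root of the F statistic. On simulated counts the blocked fit made more false calls than its adjusted p allows, so an adjusted p near 0.05 from it is weak. On these bulk RNA samples a change in the share of cells that express a gene and a change in the RNA of each cell cannot be told apart.

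Among the calls, most folds were larger in the libraries numbered 2, which also gave more calls when fitted without those numbered 1. Among 12941 genes that averaged 2 or more CPM (counts scaled by library size) in SNU475, the log2 fold of pair 1 (lactate 1 over control 1) and that of pair 2 (lactate 2 over control 2) had the same sign in 64.4% (61.2% of all tested genes), with a Pearson correlation of 0.38 and a Spearman correlation of 0.411. These describe the genes of 2 pairs of libraries and carry no p. Of the 46 genes that passed, 36 had the larger fold in pair 2, namely 24 of the 33 higher and 12 of the 13 lower. The same share over all tested genes was not counted, so a larger fold in pair 2 cannot be called particular to these 46. Over all tested genes the libraries of pair 2 were less alike (r = 0.959) than those of pair 1 (r = 0.98). Fitted without both libraries numbered 1, 1714 genes passed with groups alone (717 higher and 997 lower) and 2545 with the block (1179 higher and 1366 lower). Fitted without both libraries numbered 2, 0 and 11 passed. Leaving out lactate 1 alone gave 1788 calls without the block (849 higher and 939 lower), leaving out control 1 gave 1, and leaving out lactate 2 or control 2 gave 0. Each of these fits leaves 1 SNU475 library in a group. Without both libraries of a number, 1 library is compared with 1, and the spread comes from HLF and PLC/PRF/5 alone. The SD over genes of the log2 difference between a group's libraries was 1.07 (lactate) and 0.855 (control) in SNU475. It was 0.514 to 0.675 in the other lines. These counts therefore do not measure how strong the response is in a number. With per-library effective gene lengths as offsets in the blocked fit 8 genes passed, 7 of them among the 46. ATF5, CCN1 and CCN2 were among the 4 genes that passed in each of 11 fits with the block, out of 41 calls followed through them.

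**Figure D1:**
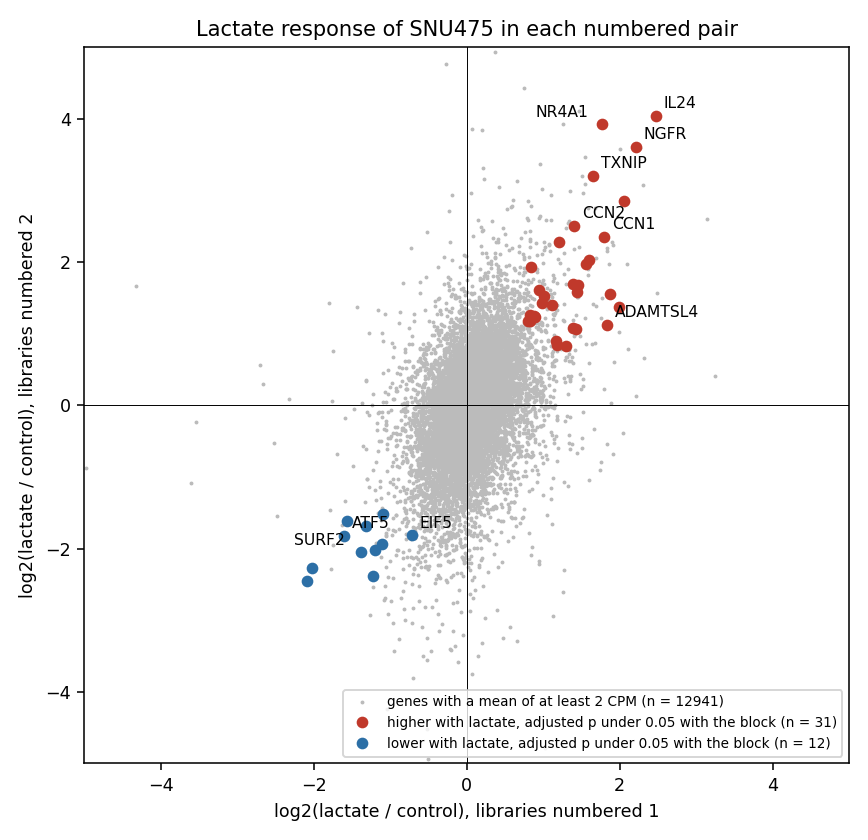
Log2 fold change of lactate over control in the libraries numbered 1 (horizontal) and in those numbered 2 (vertical), 1 point for each of 12941 genes that averaged 2 CPM or more in SNU475. Red points (n = 31) rose and blue points (n = 12) fell in the fit with the replicate block. They lie in the quadrants where both pairs move the same way, and 13 genes fall outside the axes.

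A clear rise was seen in a pair of secreted regulators of matrix and growth factor signalling. Values below are CPM on scaled library sizes, given for library 1 and then library 2 of each group. CCN1, a matrix-bound integrin ligand, had 899.5 and 2842 CPM with lactate, against 258 and 556 CPM in controls, and rose by 2.08 ± 0.17 on the log2 scale (SE, n = 2 libraries a group, adjusted p = 0.000768 by edgeR with the block). CCN2, its relative known as connective tissue growth factor, had 263 and 1310 CPM with lactate, against 99.1 and 231 CPM in controls, and rose by 1.96 ± 0.23 (adjusted p = 0.00802, edgeR). For both genes the 2 lactate libraries lay above both controls. Within each number CCN1 was higher with lactate by 3.48-fold in number 1 and 5.11-fold in number 2, and CCN2 by 2.65-fold and 5.68-fold. Both were also higher in the libraries numbered 2 than in those numbered 1, by 1.38 and 1.77 on the log2 scale. Leaving out single libraries moved the unblocked log2 fold of CCN1 between 1.14 and 2.85 and that of CCN2 between 0.66 and 2.99.

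The promoter of CCN2 is shown because it holds the short motif GGAATG, the core that TEAD factors read, 3 times in 300 bases. The sequence is RefSeq's on GRCh38.p14, from 250 bases before the transcript start to 50 after it, at chr6:131951323-131951622 on the minus strand, written 5′ to 3′ along the gene. Capitals mark GGAATG, at -169, -104 and -95 from the start, all on the strand of the gene.
CCN2: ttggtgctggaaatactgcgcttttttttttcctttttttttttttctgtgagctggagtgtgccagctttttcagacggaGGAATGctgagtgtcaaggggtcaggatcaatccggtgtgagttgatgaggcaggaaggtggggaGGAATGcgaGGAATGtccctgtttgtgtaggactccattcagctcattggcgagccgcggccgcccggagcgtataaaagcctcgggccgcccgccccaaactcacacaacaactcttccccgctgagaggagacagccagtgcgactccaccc
Of 35116 promoters of this length, 14.0% held GGAATG on either strand and 0.128% held it 3 or more times. The motif was chosen after the levels of CCN2 had been seen, and a match is a description of the letters, not of binding. The build used for the deposited counts is not given in the sources used here, so coordinates are given for RefSeq promoters only.

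CCN1 and CCN2 were also among the 3 genes (0.0163% of those tested) whose lactate effect in SNU475 differed from the mean of the effects in HLF and PLC/PRF/5 in the blocked fit. The difference was 2.29 ± 0.20 for CCN1 (SE, adjusted p = 0.00195, edgeR) and 2.11 ± 0.27 for CCN2 (adjusted p = 0.0408, edgeR). With groups alone no gene passed this test by edgeR, 909 genes (4.95%) had an unadjusted p under 0.05, and DESeq2 called 3. Leaving out lactate 1 gave 602 calls and leaving out control 1 gave 1, without the block. With the block, 1207 genes passed without both libraries numbered 1 and 1 passed without both numbered 2. These omissions too leave 1 SNU475 library in a group, so their counts carry the limit given above. In HLF, CCN1 had 1044 and 885 CPM with lactate, against 741 and 590.5 CPM in controls. Its log2 fold in HLF was 0.54 ± 0.16 and did not pass (adjusted p = 0.232, edgeR with the block). In PLC/PRF/5 CCN1 had 72.8 and 31.8 CPM with lactate, against 143 and 61.7 CPM in controls. There CCN1 fell by 0.96 (log2, SE 0.16), with an adjusted p of 0.0269 by edgeR with the block. CCN2 had 78.6 and 55.7 CPM with lactate, against 46.9 and 39.8 CPM in controls in HLF. Its log2 fold in HLF was 0.62 ± 0.22 and did not pass (adjusted p = 0.313, edgeR with the block). In PLC/PRF/5 CCN2 had 77.1 and 42.8 CPM with lactate, against 150.0 and 78.9 CPM in controls. Its log2 fold in PLC/PRF/5 was -0.92 (SE 0.22) and did not pass (adjusted p = 0.093, edgeR with the block). The test thus set SNU475 against a mean of HLF and PLC/PRF/5 folds with opposite signs. SNU475 against HLF alone was not tested.

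**Figure D2:**
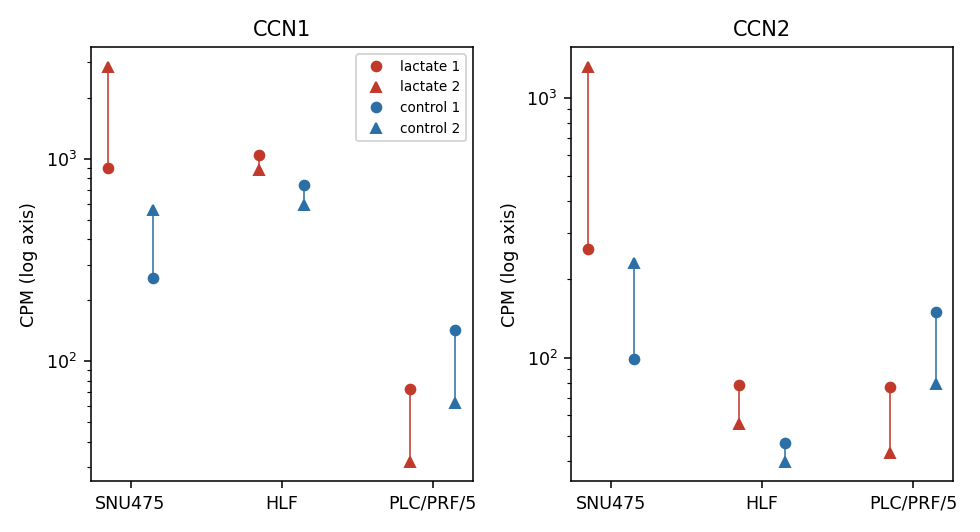
CPM on a log axis of CCN1 and CCN2 in the 12 libraries, with lactate (red) left of control (blue) in each line, circles for libraries numbered 1 and triangles for those numbered 2. In SNU475 and HLF lactate is above control within each number for both genes, with the wider gap in SNU475, and in PLC/PRF/5 it is below control within each number.

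Of the list of 16 YAP and TEAD targets 2 rose (CCN1 and CCN2) and none fell. Over all tested genes 0.18% rose and 0.0708% fell. Without the block 5 were higher at an unadjusted p under 0.05, as 6.4% of all tested genes were. Both lactate libraries lay above both controls in 6 genes and below in 3, where 16.2% and 15.4% of all tested genes did so. The median unblocked log2 fold was 0.28, against 0.01 over all tested genes, and was 0.54 in pair 1 and 0.12 in pair 2. LATS2, a kinase that restrains YAP, had 78.5 and 105.5 CPM with lactate, against 50.4 and 35.0 CPM in controls (adjusted p = 0.0617, edgeR with the block). AMOTL2, an angiomotin that also restrains YAP, had 210.3 and 280 CPM with lactate, against 114 and 121 CPM in controls (adjusted p = 0.0553, edgeR with the block). ANKRD1, another textbook target, had 26.0 and 26.7 CPM with lactate, against 11.4 and 45.7 CPM in controls, so its groups overlapped.

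Among 21 TGF-beta and BMP ligands and targets, 2 rose, the ligand gene TGFB2 among them, and none fell. Over all tested genes 0.18% rose and 0.0708% fell. The median unblocked log2 fold of this list was 0.26. TGFB2 had 254 and 517 CPM with lactate, against 118 and 195 CPM in controls, without overlap, and rose by 1.26 ± 0.19 (adjusted p = 0.0311, edgeR). INHBA, a subunit of activin, had 111 and 368 CPM with lactate, against 57.7 and 119.7 CPM in controls, and did not pass (adjusted p = 0.0553, edgeR with the block). ID2, a helix-loop-helix inhibitor induced by BMP, was lower in both lactate libraries, at 108 and 41.2 CPM with lactate, against 141 and 194 CPM in controls, and did not pass either.

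Among the calls were 2 integrin subunit genes and 2 junction genes, which come from no list of integrins or junctions. ITGB3, the integrin subunit of the vitronectin receptor, had 114 and 149.8 CPM with lactate, against 42.5 and 71.3 CPM in controls, and rose by 1.25 ± 0.17 (adjusted p = 0.0198, edgeR). ITGA5, a subunit of the fibronectin receptor, had 736 and 908 CPM with lactate, against 402 and 384 CPM in controls, and rose by 1.06 ± 0.17 (adjusted p = 0.0356, edgeR). For both integrins the groups did not overlap. The desmosome gene DSP rose by 1.05 ± 0.16 and the tight junction gene CLDN1 by 1.01 ± 0.18, the second with overlapping groups. Other genes of the matrix and cell surface that rose were the fibrillin-binding ADAMTSL4 (1.51 ± 0.22), the TGF-beta binding protein gene LTBP4 (1.01 ± 0.18), the proteoglycan xylosyltransferase gene XYLT2 (1.01 ± 0.17), the transmembrane glycoprotein gene CDCP1 (1.73 ± 0.26) and the semaphorins SEMA4G, SEMA6B and SEMA7A (1.80 ± 0.29, 1.21 ± 0.20 and 1.55 ± 0.27).

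Signalling genes formed the next group. IL24, a cytokine of the IL-10 family, had 7.96 and 66.0 CPM with lactate, against 1.35 and 3.91 CPM in controls, and rose by 3.43 ± 0.42 (adjusted p = 0.0234, edgeR). NGFR, the low-affinity neurotrophin receptor, had 1.68 and 18.0 CPM with lactate, against 0.281 and 1.38 CPM in controls, and rose by 3.31 ± 0.58 (adjusted p = 0.0451, edgeR). NR4A1, an orphan nuclear receptor made within an hour of many stimuli, had 5.41 and 28.5 CPM with lactate, against 1.52 and 1.78 CPM in controls, and rose by 3.07 ± 0.41 (adjusted p = 0.0242, edgeR). In each of the 3 genes both lactate libraries lay above both controls. The fold was 13.1 to 16.9 in number 2, against 3.56 to 5.97 in number 1. The calls of IL24 and NGFR were lost with effective-length offsets (adjusted p = 0.0782 and 0.0845, edgeR with the block). DESeq2 with the block did not call IL24 either (adjusted p = 0.751, DESeq2). The MAP kinase phosphatase DUSP9 (1.62 ± 0.25), the stress gene GADD45B (1.40 ± 0.24), the kinase PAK1 (1.29 ± 0.22), the HES family gene HES4 (1.79 ± 0.23), the oxytocin receptor OXTR (1.23 ± 0.19) and the vitamin D hydroxylase CYP24A1 (1.79 ± 0.27) also rose. OXTR had overlapping groups, at 33.8 and 121 CPM with lactate, against 12.9 and 57.6 CPM in controls.

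The 23 immediate early and MAP kinase feedback genes had a median unblocked log2 fold of 0.77, with 21 above 0, as 51% of all tested genes were. Of them 1 rose (NR4A1) and none fell. Both lactate libraries lay above both controls in 10 and below in 1, where 16.2% and 15.4% of all tested genes did so. Their median was 0.20 in pair 1 and 1.23 in pair 2. DUSP1, a MAP kinase phosphatase, had 31.3 and 150.5 CPM with lactate, against 20.8 and 21.7 CPM in controls. The stress factor ATF3 had 11.3 and 78.1 CPM with lactate, against 6.41 and 12.9 CPM in controls, with overlap between lactate 1 and control 2. FOS stayed low at 3.17 and 4.68 CPM with lactate, against 1.63 and 1.21 CPM in controls, and EGR1 had 12.6 and 4.95 CPM with lactate, against 5.06 and 3.05 CPM in controls. None of these last 4 passed in either fit.

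TXNIP was the metabolic gene with the clearest rise. It encodes an arrestin-like protein that slows glucose uptake and binds thioredoxin. TXNIP had 333 and 833 CPM with lactate, against 106 and 90.1 CPM in controls, with no overlap, and rose by 2.43 ± 0.35 (adjusted p = 0.0394, edgeR). The call was lost with effective-length offsets (adjusted p = 0.0594, edgeR with the block), with no low-count filter (adjusted p = 0.0795, edgeR with the block) and with SNU475 fitted alone (adjusted p = 0.153, edgeR with the block). Unlike CCN1, TXNIP did not differ detectably in level between the numbers, taken over both treatments (0.56 ± 0.34, adjusted p = 0.295, edgeR). Its fold with lactate was 3.15 in number 1 and 9.25 in number 2, where that of CCN1 was 3.48 and 5.11. The unblocked log2 folds of TXNIP were 2.57 ± 0.41 in SNU475, 1.68 ± 0.41 in HLF and 1.69 ± 0.69 in PLC/PRF/5. HLF had 69.2 and 38.4 CPM with lactate, against 18.2 and 15.3 CPM in controls. PLC/PRF/5 had only 0.852 and 1.62 CPM with lactate, against 0.451 and 0.299 CPM in controls. TXNIP did not pass with the block in HLF or PLC/PRF/5 (adjusted p = 0.152 and 0.419, edgeR). ARRDC4, a related arrestin gene, had 16.6 and 26.2 CPM with lactate, against 4.84 and 11.2 CPM in controls, and ARRDC3 had 32.5 and 115 CPM with lactate, against 31.9 and 41.3 CPM in controls. Neither passed. Over the 13 genes of the MondoA and ChREBP system the median unblocked log2 fold was 0.37. Of them 11 were above 0, as 51% of all tested genes were. In this list 1 rose and none fell, where 0.18% and 0.0708% of all tested genes did.

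The promoters of TXNIP and ARRDC4 are shown because both genes are known targets of the glucose-sensing factors, which bind pairs of CACG-type boxes. Both are RefSeq sequences on GRCh38.p14 over the same 300 bases around the start, TXNIP at chr1:145996530-145996829 on the minus strand and ARRDC4 at chr15:97960453-97960752 on the plus strand. Capitals mark CCAAT boxes on either strand (ATTGG on the opposite one), the E-box CACGTG, and a pair of CACG boxes with any 7 bases between them.
TXNIP: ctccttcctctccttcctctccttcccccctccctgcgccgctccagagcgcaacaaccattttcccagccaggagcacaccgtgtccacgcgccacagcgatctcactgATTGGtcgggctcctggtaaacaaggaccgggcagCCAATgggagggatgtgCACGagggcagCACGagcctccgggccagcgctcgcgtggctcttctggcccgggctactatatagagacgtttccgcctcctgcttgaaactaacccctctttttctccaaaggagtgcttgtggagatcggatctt
ARRDC4: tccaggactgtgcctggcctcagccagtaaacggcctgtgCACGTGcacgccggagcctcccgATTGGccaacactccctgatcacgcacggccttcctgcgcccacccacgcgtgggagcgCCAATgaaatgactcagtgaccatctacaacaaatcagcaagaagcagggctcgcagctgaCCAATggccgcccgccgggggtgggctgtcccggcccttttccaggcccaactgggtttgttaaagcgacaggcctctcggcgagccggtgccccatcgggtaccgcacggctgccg
The spaced CACG pair, chosen as a motif after the levels had been seen, began at -88 in TXNIP, was not found in the ARRDC4 window, and was held by 0.609% of the 35116 promoters. The E-box CACGTG was found at -210 in ARRDC4 and in 7.26% of promoters, and it contains the hypoxia response core ACGTG on both strands, which 21.4% of promoters held. CCAAT occurred at -140 and -105 in TXNIP and at -187, -128 and -67 in ARRDC4, against 34.6% of promoters with at least 1 and 3.26% with 3 or more. Of the 30 genes named for lactate by rule, 22 had a promoter in the RefSeq table.

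**Figure D3:**
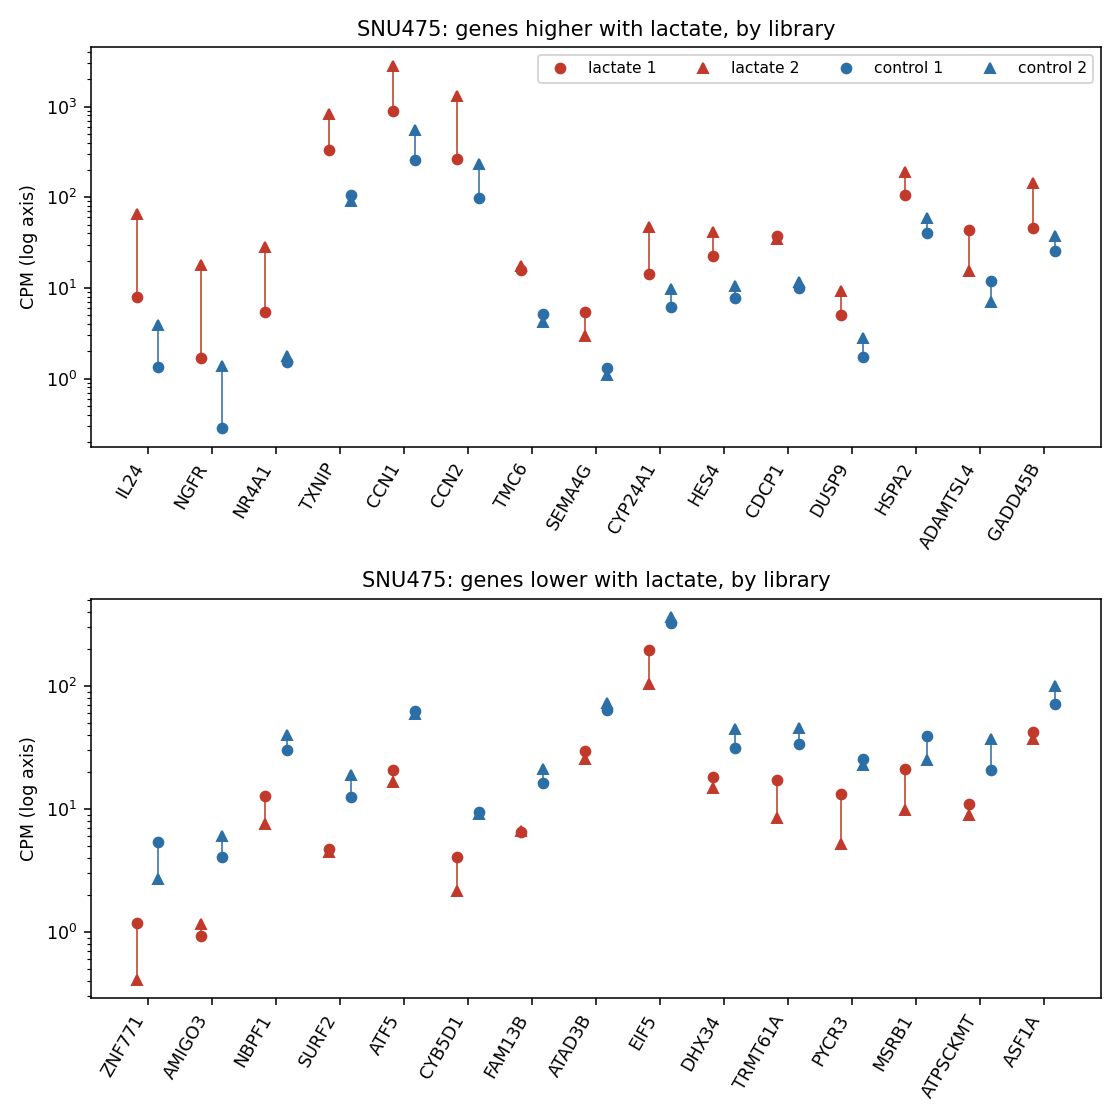
CPM on a log axis of the 15 genes named as higher (top) and the 15 named as lower (bottom) with lactate in SNU475, 1 point a library, with lactate (red) left of control (blue). By the naming rule both lactate libraries lie on the same side of both controls in each gene, and from DHX34 to ASF1A the 6 genes at the right of the bottom panel did not pass in the blocked fit.

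Glycolysis genes shifted by small amounts, mostly upward. Of 21 enzymes and glucose transporters, 19 had an unblocked log2 fold above 0, as 51% of all tested genes did. Their median was 0.16, and 1 rose, ENO2, where 0.18% of all tested genes rose. ENO2, the neuronal enolase, had 71.7 and 30.7 CPM with lactate, against 29.02 and 17.1 CPM in controls, and rose by 1.08 ± 0.19 (adjusted p = 0.0434, edgeR). SLC2A3, the glucose transporter GLUT3, had 41.6 and 145 CPM with lactate, against 23.5 and 29.6 CPM in controls, and narrowly missed (adjusted p = 0.0543, edgeR with the block). The aldolase gene ALDOC had 46.7 and 33.5 CPM with lactate, against 21.2 and 11.2 CPM in controls, and missed as narrowly (adjusted p = 0.0523, edgeR with the block). LDHA had 1558 and 1749 CPM with lactate, against 1558 and 1653 CPM in controls. PKM had 2735 and 3317 CPM with lactate, against 3335 and 2669 CPM in controls. The groups of these last enzymes overlapped.

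Genes that handle lactate and pyruvate (21, median unblocked log2 fold 0.20) held no call in either direction. SLC16A3, the export-type monocarboxylate transporter MCT4, had 221 and 165 CPM with lactate, against 109 and 101 CPM in controls, and SLC16A1, which encodes MCT1, had 125 and 213 CPM with lactate, against 110.1 and 134 CPM in controls. PDK4, a kinase that shuts pyruvate dehydrogenase, had 7.15 and 10.2 CPM with lactate, against 4.39 and 3.45 CPM in controls. SLC16A3 and PDK4 were higher in both lactate libraries than in either control, yet did not pass (adjusted p = 0.0793 and 0.0715, edgeR with the block). The lactate receptor HCAR1 had 2.36 and 1.49 CPM with lactate, against 3.43 and 3.51 CPM in controls. None of 17 enzymes proposed to write or erase lactyl marks passed (median -0.05). The acetyltransferase KAT2A was lower, with 19.3 and 16.3 CPM with lactate, against 31.4 and 39.9 CPM in controls (adjusted p = 0.059, edgeR with the block), while EP300 had 58.6 and 26.0 CPM with lactate, against 50.3 and 31.7 CPM in controls.

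The 22 hypoxia targets had a median unblocked log2 fold of 0.58, with 20 above 0, as 51% of all tested genes were. Both lactate libraries lay above both controls in 10 and below in none, where 16.2% and 15.4% of all tested genes did so. Of the list 6 were higher at an unadjusted p under 0.05, as 6.4% of all genes were. None passed the adjusted test. VEGFA, the vascular growth factor, had 69.9 and 204 CPM with lactate, against 60.7 and 37.6 CPM in controls. DDIT4, an inhibitor of mTORC1, had 47.4 and 175 CPM with lactate, against 41.3 and 12.1 CPM in controls, a 1.15-fold difference in number 1 and 14.5-fold in number 2. ADM, the vasodilator adrenomedullin, had 104 and 439 CPM with lactate, against 92.8 and 118 CPM in controls, with overlapping groups. The same list had medians of 0.60 in HLF and 0.74 in PLC/PRF/5.

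In the blocked fit 13 genes fell, against 33 that rose. That balance turned in the fits without lactate 1 or without both libraries numbered 1, which leave 1 SNU475 library in a group. ATF5, which encodes a factor downstream of translational stress, had 20.7 and 16.5 CPM with lactate, against 62.9 and 58.7 CPM in controls, without overlap, and fell by 1.72 (log2, SE 0.19) with an adjusted p of 0.0077 by edgeR. Within each number its level was 0.328 and 0.282 of control. It did not differ detectably between the numbers (-0.20 ± 0.19, adjusted p = 0.491, edgeR), and leaving out single libraries moved its unblocked log2 fold only between -1.88 and -1.56. EIF5, a factor for choosing the start codon, had 197 and 103 CPM with lactate, against 324 and 363 CPM in controls. It fell by 1.26 (SE 0.22, adjusted p = 0.0434, edgeR). The EIF5 call was lost with effective-length offsets (adjusted p = 0.106, edgeR with the block) and with limma-voom (adjusted p = 0.0904, with the block). It was also lost with SNU475 fitted alone (adjusted p = 0.0775, edgeR with the block). SURF2, a nucleolar protein gene, had 4.73 and 4.48 CPM with lactate, against 12.5 and 18.9 CPM in controls, and fell by 1.74 (SE 0.27, adjusted p = 0.0311, edgeR). ATAD3B, a mitochondrial ATPase gene with a close copy that could share its reads, fell by 1.31 (SE 0.22). The other named genes that fell were ZNF771, AMIGO3, NBPF1, CYB5D1 and FAM13B, by 1.51 to 2.36, and NBPF1 belongs to a family of near-identical copies, so its counts are uncertain.

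Outside the naming rule, the host gene of small nucleolar RNAs DANCR, a long non-coding RNA, was named after its values were seen. DANCR had 5.91 and 9.29 CPM with lactate, against 12.9 and 35.8 CPM in controls, and fell by 1.56 (SE 0.23, adjusted p = 0.0311, edgeR). CXCR5, a chemokine receptor gene, had 4.42 and 26.5 CPM with lactate, against 13.3 and 81.3 CPM in controls. It fell by 1.61 (SE 0.24) within numbers although its groups overlapped. TMC6 and HSPA2, named by the rule, rose by 1.83 ± 0.21 and 1.55 ± 0.19. ASMTL, named after its values were seen, rose by 1.035 ± 0.18. A further 4 of the 46 calls had 0 counts in both libraries of a group, and are not given a fold. The readthrough gene CHKB-CPT1B, which shares sequence with both parent genes, had 16 and 13 counts with lactate, against 0 and 0 in controls, and ENSG00000255439 had 12 and 20 counts with lactate, against 0 and 0 in controls. ENSG00000254721, an antisense gene, had 0 and 0 counts with lactate, against 21 and 120 in controls. ENSG00000288534 had 0 and 0 counts with lactate, against 81 and 0 in controls, so that call rests on 1 library.

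The amino acid and integrated stress response list (26 genes, median unblocked log2 fold 0.28) did not follow ATF5. ATF5 fell and none rose. Both lactate libraries lay above both controls in 7 genes and below in 5, where 16.2% and 15.4% of all tested genes did so. ATF4, the central factor of that response, had 73.3 and 134 CPM with lactate, against 95.2 and 99.6 CPM in controls. SLC7A11, the cystine transporter gene, had 133 and 60.4 CPM with lactate, against 166 and 228 CPM in controls, and did not pass. In the unfolded protein response list (18 genes, median 0.19) none passed. Its chaperone gene HSPA5 had 1367 and 4262 CPM with lactate, against 1205 and 1618 CPM in controls, with overlap.

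DNA replication genes were lower as a group of values. All 24 had an unblocked log2 fold below 0, as 46.7% of all tested genes did, with a median of -0.47, and in 15 both lactate libraries lay below both controls, as 15.4% of all tested genes did. None passed the adjusted test, and 8 had an unadjusted p under 0.05, as 5.19% of all genes did in that direction. CDC6, a loader of the replicative helicase, had 48.0 and 32.3 CPM with lactate, against 62.6 and 88.8 CPM in controls. MCM5, a helicase subunit, had 100.2 and 76.9 CPM with lactate, against 121 and 156 CPM in controls. The sliding clamp PCNA had 203 and 207 CPM with lactate, against 266 and 328 CPM in controls. The list median was -0.24 in pair 1 and -0.63 in pair 2, and -0.25 in HLF and -0.27 in PLC/PRF/5. Over the 25 other fits that gave one, it stayed between -0.65 and -0.25.

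Mitosis genes did not share that pattern. Over 22 of them the median was 0.20, but -0.20 in pair 1 and 0.43 in pair 2, and none passed for lactate. AURKA, a spindle kinase, had 149 and 335 CPM with lactate, against 176 and 220.2 CPM in controls. The list of D cyclins, E2F factors and CDK inhibitors (18 genes, median 0.22) held no call either. CDKN1C, a CDK inhibitor, had 15.4 and 20.9 CPM with lactate, against 8.89 and 7.08 CPM in controls, and MYC had 34.6 and 109 CPM with lactate, against 24.4 and 45.7 CPM in controls. Neither passed, and MYC had overlapping groups.

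Ribosome biogenesis genes also lay on the low side, with a median of -0.38 over 22. Of them 18 were below 0, as 46.7% of all tested genes were. SURF2 fell and none rose. Both lactate libraries lay below both controls in 7 genes and above in none, where 15.4% and 16.2% of all tested genes did so. NOP58, a core protein of small nucleolar particles, had 82.9 and 74.0 CPM with lactate, against 107 and 164 CPM in controls. FBL, the methyltransferase of the same particles, had 123 and 221 CPM with lactate, against 129.8 and 214 CPM in controls, so not all members were lower. The medians of this list were -0.37 in HLF and -0.35 in PLC/PRF/5.

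**Figure D4:**
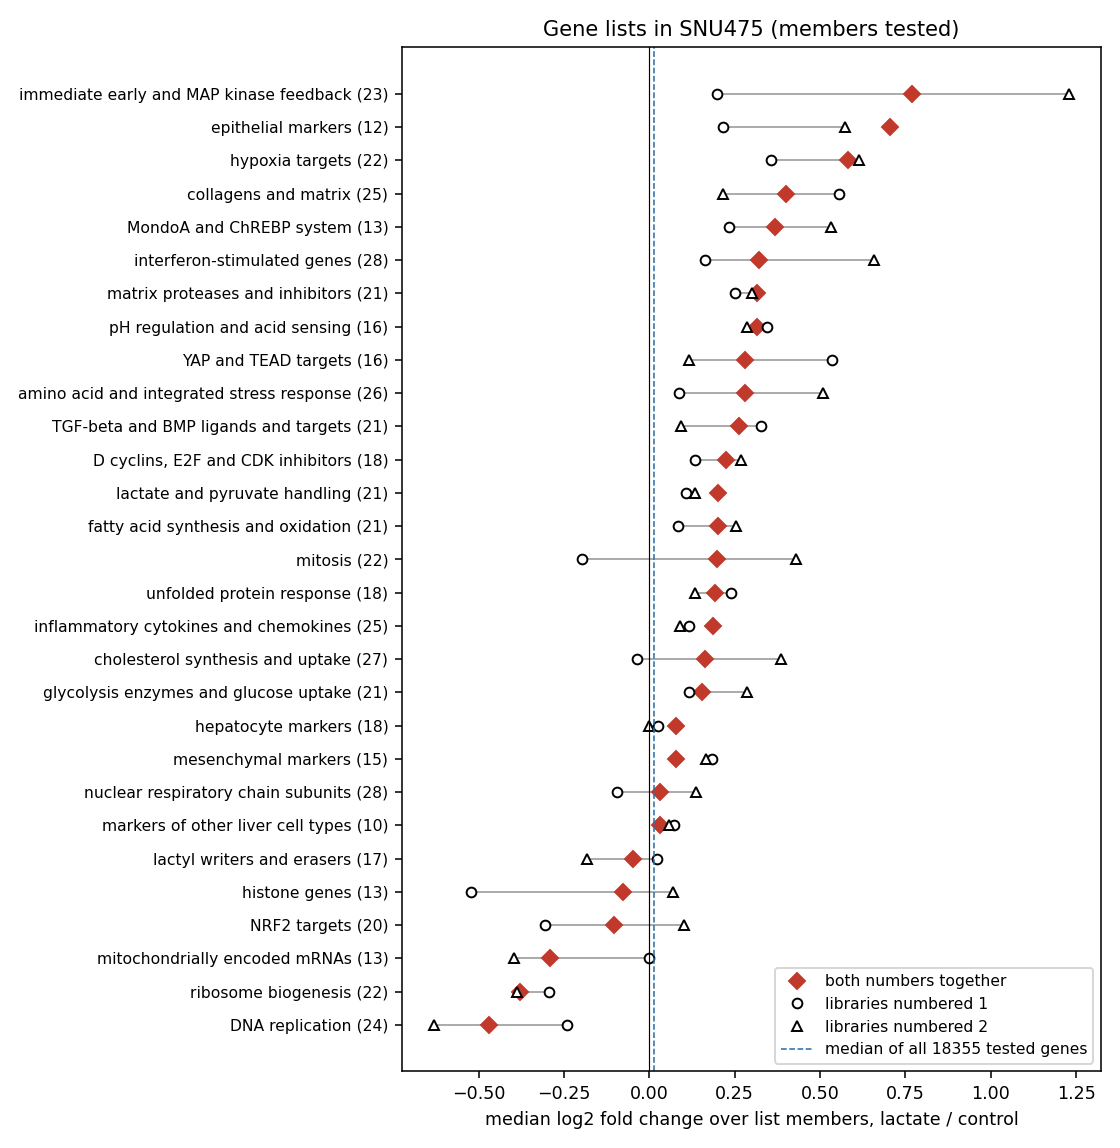
Median log2 fold change, lactate over control, over the tested members of 29 gene lists in SNU475 (numbers of members in brackets). Red diamonds are from the unblocked fit, circles from pair 1 and triangles from pair 2, both taken from CPM with a prior count, so low genes shrink there and a diamond can lie outside its pair. DNA replication and ribosome biogenesis lie lowest, at -0.47 and -0.38, and mitosis has its 2 pairs on opposite sides of 0.

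Collagen and matrix genes leaned upward, with 24 of 25 above 0, as 51% of all tested genes were. Their median was 0.40, but none passed. COL6A2 had 612 and 645 CPM with lactate, against 360 and 488 CPM in controls. FN1, which encodes fibronectin, had 4718 and 1540 CPM with lactate, against 2895 and 1426 CPM in controls, with overlap. The matrix proteases and inhibitors (21 genes, median 0.32) held no call. Their urokinase receptor gene PLAUR had 80.4 and 169 CPM with lactate, against 53.9 and 59.95 CPM in controls.

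Lineage markers moved unevenly. Of 15 mesenchymal markers (median 0.08) only ITGA5 rose and none fell. VIM had 4385 and 7051 CPM with lactate, against 4559 and 6280 CPM in controls. The repressor gene SNAI2 was lower with lactate, at 18.8 and 25.2 CPM, against 30.2 and 91.0 CPM in controls, while its relative SNAI1 had 26.3 and 115 CPM with lactate, against 20.0 and 29.2 CPM in controls. Neither passed. Of 12 epithelial markers (median 0.70) 11 were above 0, as 51% of all tested genes were, and none passed. CDH1, which encodes E-cadherin, had 15.1 and 2.24 CPM with lactate, against 6.81 and 0.863 CPM in controls, so it was higher with lactate within each number while the groups overlapped. The median of this list ranged from -0.09 to 1.14 over the other fits. The 18 hepatocyte markers (median 0.08) and the 10 markers of other liver cell types that were tested (median 0.03) held no call.

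In lipid metabolism no gene of the lists passed. Cholesterol synthesis and uptake (27 genes) had a median of 0.16, at -0.04 in pair 1 and 0.39 in pair 2. INSIG1, which retains the SREBP activation complex in the endoplasmic reticulum when sterols are plentiful, had 62.3 and 174.5 CPM with lactate, against 50.1 and 45.9 CPM in controls. Fatty acid synthesis and oxidation (21 genes) had a median of 0.20. APOE, in neither list, rose by 1.25 ± 0.20 with overlapping groups, at 29.7 and 13.4 CPM with lactate, against 15.4 and 4.32 CPM in controls.

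The lists of mitochondrial and redox genes held no call. Outside them ATAD3B fell and TXNIP rose, as given above. POLG, the mitochondrial DNA polymerase, had 54.7 and 78.2 CPM with lactate, against 29.4 and 33.1 CPM in controls, and rose by 1.07 ± 0.17 (adjusted p = 0.0378, edgeR). The 13 mitochondrially encoded mRNAs had a median of -0.29, at -0.00233 in pair 1 and -0.40 in pair 2, and the 28 nuclear respiratory chain subunits one of 0.03. No member of either passed. The 20 NRF2 targets had a median of -0.10 with no call. HMOX1, which encodes heme oxygenase, had 86.2 and 53.4 CPM with lactate, against 143 and 195 CPM in controls, and missed narrowly (adjusted p = 0.0553, edgeR with the block).

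Other lists held no call. For 16 genes of pH regulation and acid sensing the median was 0.31. The proton-sensing receptor GPR4 had 4.23 and 21.02 CPM with lactate, against 1.91 and 2.65 CPM in controls, and the anion exchanger SLC4A2 had 339 and 92.1 CPM with lactate, against 529 and 381 CPM in controls. Neither passed (adjusted p = 0.0793 and 0.0737, edgeR with the block). For 25 inflammatory cytokines and chemokines the median was 0.19, and CXCL1 had 2.86 and 0.407 CPM with lactate, against 4.16 and 11.6 CPM in controls. For 28 interferon-stimulated genes the median was 0.32, and for 13 histone genes it was -0.08.

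The direction of the calls was shared with the other lines more often than not. Of the 33 genes that rose in SNU475, 30 had a log2 fold above 0 in HLF and 26 in PLC/PRF/5, and of the 13 that fell, 11 and 10 were below 0 there. Over the 10635 genes with at least 2 CPM in every line, the sign in SNU475 matched that in HLF for 67.6% (Pearson 0.453) and that in PLC/PRF/5 for 59.5% (Pearson 0.298). These are descriptions over genes, with no p. The calls were counted at any level in the other lines, so their counts and these shares cover unlike sets of genes. DSP, counted as above 0 in HLF, had 0.0454 and 0.139 CPM there with lactate, against 0.0497 and 0.0527 CPM in controls. In HLF with the block, SEMA4G and CXCR5 also passed. CXCR5 had 0 and 0 CPM with lactate, against 19.9 and 0 CPM in controls in HLF, so that call rests on 1 library. In PLC/PRF/5 with the block, ADAMTSL4, SEMA6B, ASMTL and LTBP4 passed as well as CCN1.

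The difference between the libraries numbered 2 and 1, fitted in the blocked model with lactate as a term, passed for 2880 genes (15.7%), with 1338 (7.29%) higher and 1542 (8.4%) lower in number 2. Interferon-stimulated and antigen presentation genes were lower in number 2, with 20 of 28 passing and none higher, and a median log2 difference of -1.37. IFI27, an interferon-induced gene, had 8.07 and 5.98 CPM in lactate 2 and control 2, against 61.0 and 47.5 CPM in lactate 1 and control 1. B2M, the light chain of class I antigen presentation, had 2229 and 1256 CPM in lactate 2 and control 2, against 2816 and 2522 CPM in lactate 1 and control 1. Mitosis genes went the other way, with 13 of 22 higher and none lower in number 2. Collagen and matrix genes split, with 5 higher and 9 lower.

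Single genes differed further. CHI3L1, a secreted chitinase-like protein gene, had 12.5 and 7.82 CPM in lactate 2 and control 2, against 158 and 105 CPM in lactate 1 and control 1. CP, which encodes the copper carrier ceruloplasmin, had 0.407 and 0.173 CPM in lactate 2 and control 2, against 11.3 and 7.87 CPM in lactate 1 and control 1. VGLL3, a TEAD cofactor gene, had 12.3 and 4.37 CPM in lactate 2 and control 2, against 1.12 and 0.619 CPM in lactate 1 and control 1. Of the 46 lactate calls, 22 also passed for number, 18 of those that rose and 4 of those that fell. Whether what the numbers share changes the response to lactate was not tested.

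**Figure D5:**
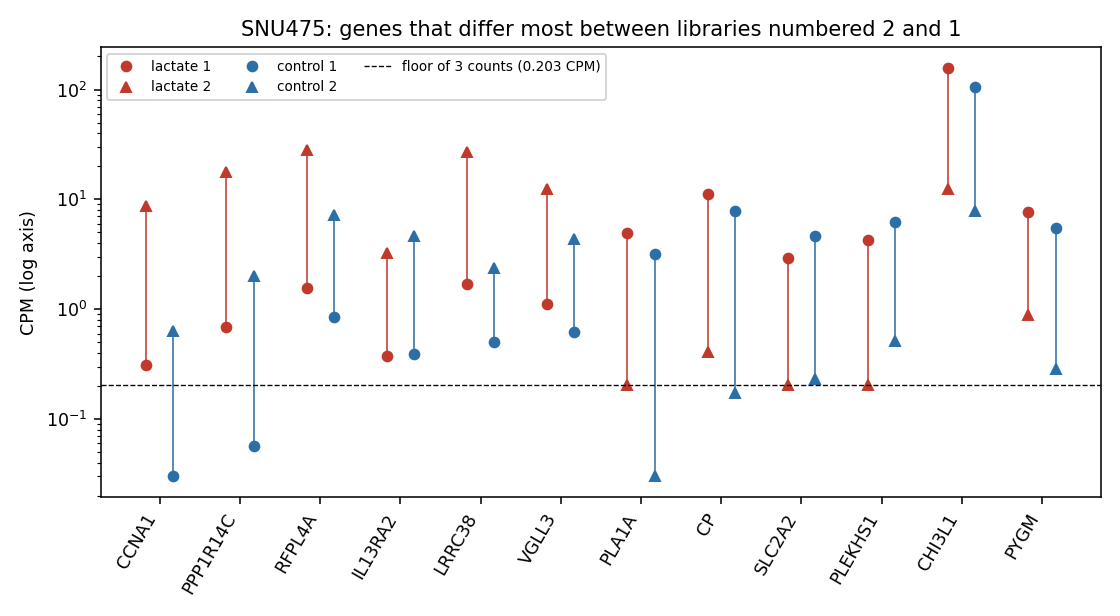
CPM on a log axis of the 6 genes highest and the 6 lowest in SNU475 libraries numbered 2 (triangles) relative to those numbered 1 (circles), among genes that passed for number, with lactate (red) left of control (blue). The dashed line is 3 counts in the library with the highest such floor (0.203 CPM), a level of 0 is drawn at 0.03 CPM, and in each gene both triangles lie on the same side of both circles.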

How the data were processed

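Each of the 12 libraries had 1 gene table of 62757 rows. Its expected counts, which are estimated counts, were deposited beside TPM and effective lengths in RSEM's columns, per the file headers. FastQC, STAR, RSEM and DESeq2 stand in the submitters' processing notes, as do the mouse builds GRCm38 and mm10, although the row names are human Ensembl identifiers. The human build is not given in the sources used here, nor is the strand setting of the counting. Expected counts were rounded, the 47 Y-copy rows of pseudoautosomal genes were summed with the X rows, and of 62710 genes 18355 passed filterByExpr by group.

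edgeR 4.0.16 (R 4.3.3) with TMM factors of 0.794 to 1.17 was fitted to all 12 libraries as 6 groups (6 residual degrees of freedom, common biological coefficient of variation 0.26) with robust quasi-likelihood dispersions. The second fit adds the replicate number within line as a block (3 residual degrees of freedom, coefficient 0.169). The numbers come from the titles. For PLC/PRF/5 the libraries titled 2 carry the number 3 in the names of their deposited tables, in both conditions. Libraries sharing a number deviated together from their group means, with correlations of 0.446 in SNU475, 0.101 in HLF and 0.132 in PLC/PRF/5, over the limit of 0.1 for reading them as pairs, HLF only just. TPM was used for markers only.

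Genes were named by rule: for lactate up to 15 in each direction among protein-coding genes with at least 2 CPM and groups without overlap, by block call and fold and then by p. The rule also takes up to 4 members of each list by p, the 6 highest and 6 lowest folds for number, and a fixed set of metabolic genes. Others (ITGB3, DSP, CLDN1, OXTR, APOE, POLG, IFI27 and AMOTL2 among them) were named after their values were seen. The members, the 29 gene lists and the tests were chosen with earlier results of these data known. Some genes are not reported here. DESeq2 1.42.0 and limma 3.58.1 served as alternatives.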

Additional observations from a re-analysis of the deposited data

Results flagged for a closer look

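CCN1 and CCN2 had a lactate effect in SNU475 that differed from the mean effect of HLF and PLC/PRF/5 by a test of the difference itself, in edgeR's fit with the replicate block. The difference was 2.29 on the log2 scale for CCN1 (SE 0.20, adjusted p = 0.00195) and 2.11 for CCN2 (SE 0.27, adjusted p = 0.0408). Both genes were also higher in the SNU475 libraries numbered 2 than in those numbered 1. Single libraries left out of the unblocked fit moved the difference between 1.35 and 3.06 for CCN1 and between 0.81 and 3.14 for CCN2.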

How the results depend on the processing

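Without the block, the count of lactate calls in SNU475 was 0, and it stayed 0 with relative log expression or upper-quartile factors, effective-length offsets, mitochondrial genes removed, limma-voom, SNU475 fitted alone, and without both libraries numbered 2. It was 46 with the replicate block, 414 with no low-count filter, 274 with DESeq2 and 1714 without both libraries numbered 1, and leave-one-out gave 0 to 1788. With the block it was 30 in SNU475 alone and 706 with DESeq2. Further fits with the block, chosen after seeing the data, gave 1143 with no low-count filter, 47 with relative log expression factors, 49 with upper-quartile factors, 8 with effective-length offsets, 55 with mitochondrial genes removed, 18 with limma-voom, 2545 without both libraries numbered 1 and 11 without both numbered 2. The test against the other lines gave 0 without the block, 3 with it, 98 with no low-count filter, 3 with DESeq2 and 0 to 602 under leave-one-out. With the block it gave 1207 without both libraries numbered 1 and 1 without both numbered 2. The count for number was 2880, and 1839 in SNU475 alone. The cause of these shifts was not tested. A library left alone in its group is assumed to vary like the other groups.

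ATF5, CCN1 and CCN2 were among the 4 genes that passed in all 11 blocked fits, of 41 calls followed through them. The lowest number of fits was 6, for AMIGO3, CLDN1 and LTBP4. TXNIP passed in 8. The calls were chosen in the blocked fit itself and the fits share counts, so this tally is a description and no independent support. Of the 46 calls at least 45 kept their direction in every other fit, 45 being tested in SNU475 alone. Leaving out 1 library turned the sign of 6 of 110 followed genes, whose unblocked log2 folds then ranged from -0.0693 to 2.58 for OXTR, -3.43 to 0.20 for CXCR5, -0.0164 to 2.06 for ADM, -0.0524 to 1.59 for HSPA5, -0.0263 to 1.63 for MYC and -0.0199 to 1.55 for HMGCS1. At this depth 3 counts are 0.169 to 0.203 CPM in the SNU475 libraries, and lower levels could not be told from 0.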
